A study of Mus musculus with 6 samples.

Results

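The small nucleolar RNA (snoRNA) genes were examined in hepatic tissue of ARSB-null and control mice. They were taken as the probe sets whose array annotation gave exactly 1 symbol beginning with Snora or Snord and a number. This rule found 56 of 35556 probe sets, and 51 of the 19938 genes with 1 symbol. Of these, 20 were box H/ACA (Snora) genes and 31 were box C/D (Snord) genes. Where a gene had several probe sets, the one with the highest mean over the 6 arrays was used. No member was dropped, since no filter on low values was applied.

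Expression was measured in whole liver of 3 ARSB-null and 3 control mice, with 1 array per liver and mice numbered 4, 5 and 6 in each group. The ARSB-null mice were homozygous for loss of arylsulfatase B, the lysosomal enzyme that removes sulfate from chondroitin 4-sulfate and dermatan sulfate. The control mice were C57BL/6J. All were male, 12 weeks old, of this background strain and untreated, and the sources give either ketamine with xylazine or carbon dioxide before cervical dislocation. The controls are not described as littermates of the null mice, so genotype and colony cannot be told apart. Signals were log2 values, on which a difference of 1 is a 2-fold change. In whole tissue, fewer cells of a type and less RNA per cell cannot be told apart.

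SnoRNAs are short RNAs that work in the nucleolus, bound to protein. Most box C/D snoRNAs guide fibrillarin to sites of ribose methylation in ribosomal RNA, and most box H/ACA snoRNAs guide dyskerin to sites where uridine is turned into pseudouridine. A few, among them U3, U8 and U17, are needed instead for cleavage of the ribosomal RNA precursor. In vertebrates most are cut from introns of host genes, many of which encode ribosomal proteins or are long non-coding RNAs. The members here span 45 to 205 bases in RefSeq. How RNA of this length was kept at extraction is not given in the sources used here, and a probe set that lies in an intron also reads the unspliced host transcript.

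The labels were checked on Arsb, which had log2 signals of 7.63, 7.46 and 7.64 in ARSB-null livers, against 10.21, 10.23 and 10.21 in control livers (log2 difference -2.64, limma adjusted p = 0.000639). All 6 hepatocyte markers ranked at or above the 99.4 percentile of probe set means. Summed erythroid markers (2 of 3 measured) were 10.1 to 10.5 in ARSB-null and 11.2 to 11.4 in control livers. Those of B and plasma cells (2 of 3 measured) were 6.88 to 7.01 in ARSB-null and 6.38 to 6.64 in control livers. Those of neutrophils (3 of 3) were 6.88 to 7.08 in ARSB-null and 7.11 to 7.25 in control livers, and those of cholangiocytes (3 of 3) were 8.70 to 8.81 in ARSB-null and 8.95 to 9.05 in control livers. These 4 sums did not overlap between the groups, and their part in the snoRNA values was not tested. The single markers behind a sum did not all move alike. Alas2 and Slc4a1 were both lower in ARSB-null livers, by log2 differences of -0.81 and -1.56. Of the B and plasma cell markers, Jchain differed by 1.30 but Cd79a by -0.40. Of the neutrophil markers, Ngp differed by -0.50, S100a8 by -0.21 and S100a9 by -0.01. Of the cholangiocyte markers, Sox9 differed by -0.35, Krt19 by 0.02 and Epcam by 0.08.

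Most snoRNA genes had a higher mean signal in the ARSB-null livers, by small amounts. Of the 51, 39 (76.5%) had a higher mean, against 50.4% of all probe sets, and 12 had a lower one, against 49.6%. Among box H/ACA genes 17 of 20 were higher and 3 lower, and their log2 differences had a median of 0.23, a median absolute deviation of 0.13 and a range of -0.16 to 0.70. Among box C/D genes 22 of 31 were higher and 9 lower, with a median of 0.12, a median absolute deviation of 0.23 and a range of -0.57 to 1.62. The median over all probe sets was 0.00 (median absolute deviation 0.10).

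No snoRNA gene passed the threshold of an adjusted p under 0.05 in limma, in which 0.00562% of all probe sets were called higher and 0.0141% lower. The analysis of variance also called 0. At an unadjusted limma p under 0.05, 3 of 20 box H/ACA and 3 of 31 box C/D genes were higher and 0 of either class were lower, against 2.75% of all probe sets higher and 3.19% lower. By analysis of variance these counts were 3 and 2 higher, and 0 lower. With the mouse number as a block, 4 box H/ACA and 4 box C/D genes were higher and 2 box C/D genes (Snord35a and Snord14e) lower, against 4.42% and 4.15% of all probe sets. That fit called 0 of them, and 0.00281% of all probe sets higher and 0.00844% lower. All 3 ARSB-null values lay above all 3 control values for 4 box H/ACA and 4 box C/D genes, against 5.14% of all probe sets, and below them for 1 box C/D gene, against 6.78%. When only the 21789 probe sets with 1 symbol were tested, Snord118 (adjusted p = 0.0239) and Snora33 (adjusted p = 0.0439) were called, against 0.124% of those probe sets called higher and 0.151% lower.

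**Figure D1:**
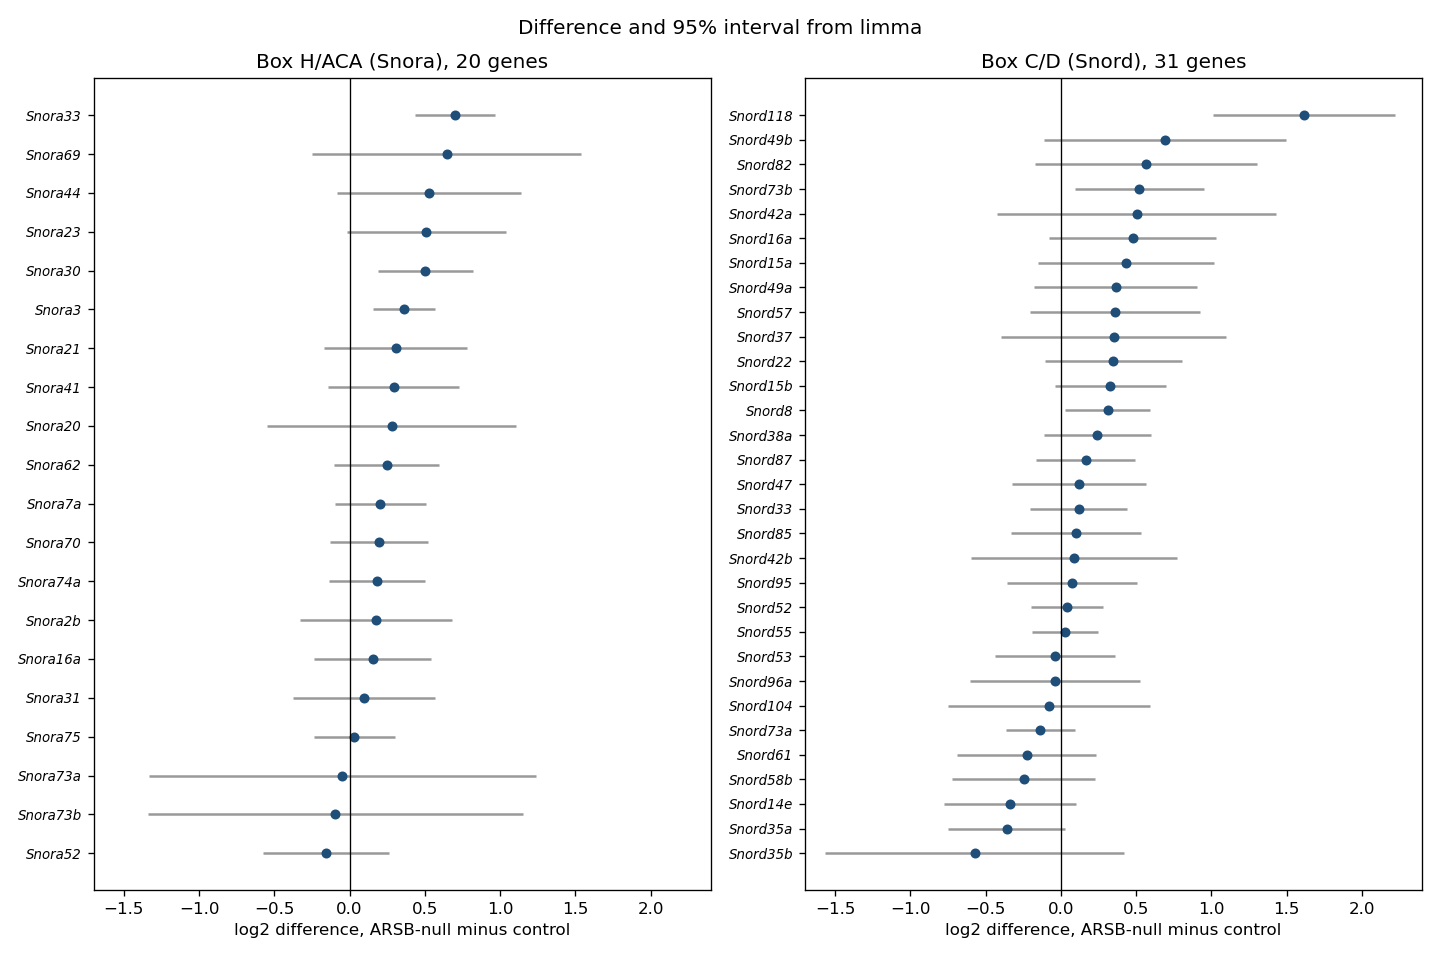
Log2 difference (x axis, ARSB-null minus control, points) with its 95% interval from limma (bars) for each of the 20 box H/ACA genes on the left and the 31 box C/D genes on the right, ordered by size. Points lie right of 0 for 17 of 20 and 22 of 31 genes. The point farthest from 0 is Snord118, at 1.62.

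Snord118 had the largest difference of the 51. It encodes U8, a box C/D RNA that guides no known modification and is needed, in frog oocytes, for the maturation of the large subunit ribosomal RNAs. In humans its loss of function causes a leukoencephalopathy with calcifications and cysts. Its log2 signal was 10.999, 10.62 and 10.93 in ARSB-null livers, against 8.65, 9.48 and 9.57 in control livers. All 3 null livers lay more than 1 log2 unit above the brightest control liver, and the lowest value was that of control 4. The mean was 10.85 ± 0.21 in ARSB-null and 9.23 ± 0.51 in control livers (SD, n = 3 each). The difference was 1.62 (SE 0.26), or 3.07-fold (95% interval 2.02 to 4.67; limma adjusted p = 0.232). Over the alternatives its adjusted p ran from 0.0236 to 0.711. Without control 4 the difference was 1.32, and without both arrays numbered 4 it was 1.25. An exact permutation test, two-sided, gave p = 0.1, the smallest that 3 against 3 allow. Both probe sets annotated to Snord118 held the same values on all 6 arrays, so they are 1 measurement.

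Snord118 was also the 1 member of 51 whose RefSeq span lay in no other gene. Tmem107, the neighbouring gene, which encodes a protein of the cilium's transition zone, had a difference of -0.11 (limma adjusted p = 0.985). Its mean signal of 5.81 lay under the median of 6.54 over all probe sets. Of the genes that handle U8, Nudt16 encodes an enzyme that removes its cap. Nudt16 had 8.52, 8.42 and 8.37 in ARSB-null livers, against 8.28, 8.25 and 8.24 in control livers. The groups did not overlap, and the difference was 0.18 (limma adjusted p = 0.907). Over a list of 8 genes for U8 binding and decapping, 7 means were higher and 1 lower, with a median of 0.03, or 0.01 without control 4, and with 0 called by limma and 0 at an unadjusted p under 0.05.

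Among the box H/ACA genes, Snora33 had the largest difference. Its log2 signal was 9.004, 9.06 and 8.78 in ARSB-null livers, against 8.31, 8.19 and 8.24 in control livers. The groups were 0.70 apart on average (SE 0.11), or 1.62-fold (95% interval 1.35 to 1.95; limma adjusted p = 0.235), and every null liver lay above every control liver. It lies in Rps12, a gene of a small subunit ribosomal protein, which itself had 10.90, 10.99 and 10.70 in ARSB-null livers, against 10.30, 10.53 and 10.56 in control livers. That difference was 0.40 (limma adjusted p = 0.702). Without control 4 the difference of Snora33 was 0.73.

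Snora3 varied least of the 51 members among the ARSB-null livers (SD 0.02). Its log2 signal was 9.43, 9.44 and 9.47 in ARSB-null livers, against 9.10, 9.08 and 9.07 in control livers, a difference of 0.36 (limma adjusted p = 0.530). Its other probe set differed by 0.35. The gene that contains it, Rpl27a, which encodes a large subunit ribosomal protein, had 11.65, 11.52 and 11.39 in ARSB-null livers, against 10.77, 11.31 and 11.28 in control livers. The difference of Rpl27a was 0.40 (limma adjusted p = 0.839), or 0.22 without control 4. In the host, control 4 was the lowest liver, and the groups did not overlap.

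The starts of these 2 hosts are shown because many snoRNA hosts begin with a run of pyrimidines, the terminal oligopyrimidine element through which the translation of ribosomal protein messages is controlled. The windows run from 30 bases before the RefSeq start (build GRCm38.p6) to 30 bases from it on, at chr10:23787180-23787239 on the minus strand for Rps12 and chr7:109519165-109519224 on the plus strand for Rpl27a. Capitals mark CCTTTTCC, which begins at base 9 from the start in Rps12 and at base 3 in Rpl27a. In Rpl27a the bases from the RefSeq start to these letters are pyrimidines. In Rps12 they include purines, so its RefSeq start does not begin with such a run. The letters alone do not define the element.
Rps12: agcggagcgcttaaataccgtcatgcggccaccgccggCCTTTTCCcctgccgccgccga
Rpl27a: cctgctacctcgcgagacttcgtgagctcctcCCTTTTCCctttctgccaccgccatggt
These letters were chosen after the sequences were seen, so the hits in Rps12 and Rpl27a were fixed in advance. The shares that follow include them and are no test of enrichment. Searched on both strands, they occurred in 3 of 32 start windows of containing genes (9.38%; Rps12, Rpl27a and Rpl4, with 30 of 40 such genes in the table), and in 173 of all 32851 windows of this length (0.527%).

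Snora30 had 7.06, 6.98 and 7.15 in ARSB-null livers, against 6.80, 6.49 and 6.39 in control livers. The groups did not overlap, and the difference was 0.50 (limma adjusted p = 0.581), with 2 probe sets that held the same values. Its host Srcap, a chromatin remodeller, differed by 0.14 (limma adjusted p = 0.988). Snora23 had 9.36, 9.13 and 9.31 in ARSB-null livers, against 8.24, 8.93 and 9.09 in control livers. It did not overlap either, but its difference of 0.51 (limma adjusted p = 0.843) was 0.25 without control 4. Its host Ipo7, a nuclear import receptor, differed by -0.10.

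**Figure D2:**
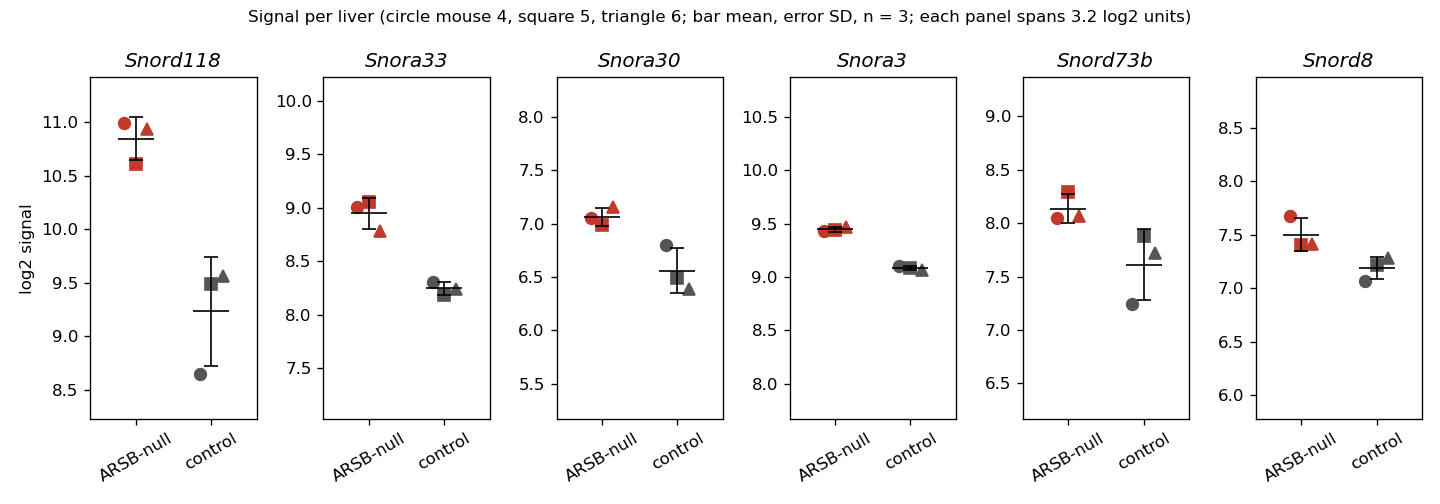
Log2 signal (y axis) of 6 snoRNA genes in each liver, ARSB-null in red on the left and control in grey on the right of each panel, with mice 4, 5 and 6 as circle, square and triangle, bars at the mean and error bars of 1 SD (n = 3 each). All panels span the same number of log2 units. In each panel the ARSB-null livers lie above the control livers, by 1.62 for Snord118 and by 0.31 for Snord8 on average.

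Snora44, which lies in the non-coding host Snhg12, had 9.39, 9.86 and 8.94 in ARSB-null livers, against 9.21, 8.66 and 8.74 in control livers. The groups overlapped, with a difference of 0.53 (limma adjusted p = 0.877), or 0.29 without null 5. Snora69, in Rpl39, had 7.28, 7.67 and 7.76 in ARSB-null livers, against 6.00, 7.38 and 7.38 in control livers. Its difference of 0.64 (limma adjusted p = 0.943) was 0.18 without control 4, the lowest liver by more than 1 log2 unit. Snora7a, in Rpl32 and among the 4 brightest of the class, had 11.21, 11.46 and 11.05 in ARSB-null livers, against 11.02, 11.03 and 11.05 in control livers, a difference of 0.21 (limma adjusted p = 0.952), or 0.09 without null 5.

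The 3 box H/ACA genes with a lower mean were also bright. Snora73a and Snora73b, both in Snhg3, are copies of U17, an RNA of small subunit precursor cleavage, and could share signal on the array. Snora73a had 10.28, 12.20 and 10.98 in ARSB-null livers, against 11.97, 11.14 and 10.49 in control livers. Null 4 was the lowest and null 5 the highest of the 6, and the SD of 0.97 in ARSB-null and 0.74 in control livers was far above the difference of -0.05 (limma adjusted p = 0.998). Snora73b followed the same livers, with a difference of -0.09 (limma adjusted p = 0.997). Without both arrays numbered 4 these differences were 0.77 and 0.72. Snora52, the brightest of the class and lying in Rplp2, had 12.63, 12.48 and 12.25 in ARSB-null livers, against 12.95, 12.45 and 12.44 in control livers, a difference of -0.16 (limma adjusted p = 0.989), or 0.01 without control 4. The other 10 box H/ACA genes all had a higher mean in ARSB-null livers, by 0.03 to 0.31, with a limma adjusted p of 0.952 or more.

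Among the box C/D genes that guide modification, Snord73b had 8.04, 8.29 and 8.07 in ARSB-null livers, against 7.24, 7.88 and 7.72 in control livers. The groups did not overlap and differed by 0.52 (limma adjusted p = 0.749), or by 0.34 without control 4. Snord8, in a non-coding gene within Chd8, had 7.68, 7.41 and 7.41 in ARSB-null livers, against 7.07, 7.21 and 7.28 in control livers. It did not overlap either, with a difference of 0.31 (limma adjusted p = 0.800), or 0.16 without both arrays numbered 4. Snord82, in the gene of nucleolin (Ncl), had 10.87, 10.67 and 10.53 in ARSB-null livers, against 9.36, 10.50 and 10.51 in control livers. Its difference of 0.57 (limma adjusted p = 0.919) was 0.18 without control 4, which lay more than 1 log2 unit under the other controls.

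Snord49b, which in human cells guides methylation of the large subunit RNA, had 12.16, 11.21 and 10.80 in ARSB-null livers, against 10.39, 10.86 and 10.85 in control livers. Null 4 was the highest and control 4 the lowest, and the difference of 0.69 (limma adjusted p = 0.882) was 0.15 without both. Snord16a, which guides methylation of the small subunit RNA in human cells and lies in Rpl4, had 7.03, 7.25 and 7.50 in ARSB-null livers, against 6.28, 7.08 and 6.99 in control livers. Its difference was 0.48 (limma adjusted p = 0.879), or 0.23 without control 4. Snord15b, which guides methylation of the large subunit RNA in human cells and lies in Rps3, had 9.24, 9.24 and 8.77 in ARSB-null livers, against 8.86, 8.66 and 8.74 in control livers, a difference of 0.33 (limma adjusted p = 0.864). Snord57, which lies in Nop56 and is among the brightest, had 12.75, 12.64 and 12.49 in ARSB-null livers, against 11.71, 12.51 and 12.58 in control livers. Its difference of 0.36 (limma adjusted p = 0.959) was 0.08 without control 4.

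The lower means among the box C/D genes were not called either. Snord35a had 9.26, 8.96 and 8.96 in ARSB-null livers, against 9.68, 9.43 and 9.15 in control livers, a difference of -0.36 (limma adjusted p = 0.859), or -0.23 without control 4. It is 1 of the snoRNAs of Rpl13a that hamster and mouse cells need for their response to lipid overload. Snord33, of the same host and the same response, differed by 0.12 (limma adjusted p = 0.989), or by 0.02 without null 4. Snord14e, a U14 RNA in the heat shock gene Hspa8, had 9.37, 9.40 and 9.82 in ARSB-null livers, against 9.57, 9.93 and 10.10 in control livers, a difference of -0.34 (limma adjusted p = 0.918), or -0.22 without control 6. Snord73a had 5.31, 5.27 and 5.14 in ARSB-null livers, against 5.38, 5.40 and 5.35 in control livers. It was the member whose null livers all lay below the controls, with a difference of -0.14 (limma adjusted p = 0.970), or -0.08 without null 6. Snord35b had the most negative difference, -0.57, with 8.18, 9.33 and 8.26 in ARSB-null livers, against 9.91, 9.003 and 8.58 in control livers (limma adjusted p = 0.971), and the difference was 0.01 without both arrays numbered 4.

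The remaining named box C/D genes were 2 dim genes and the brightest gene. Snord58b and Snord61 had means over all arrays of 4.10 and 4.06 and differed by -0.25 and -0.23 (limma adjusted p = 0.977 for both). Without control 4 these differences were -0.45 and -0.44, and control 4 was the lowest control in both. They and Snord14e were the 3 box C/D genes that were lower at an unadjusted limma p under 0.05 without it. The share of all probe sets lower in that setting is not given, so this count cannot be read as above or below it. Snord104, the brightest at a mean of 13.13, differed by -0.08 (limma adjusted p = 0.994) with groups that overlapped, or by 0.13 without control 4. Of the other 16 box C/D genes 14 means were higher in ARSB-null livers and 2 were lower, with differences of -0.04 to 0.50 and a limma adjusted p of 0.919 or more.

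The livers did not contribute alike. Each gene's deviation from its mean over the 6 arrays had a class median, for box H/ACA genes, of 0.08, 0.21 and 0.08 in null livers 4, 5 and 6, against -0.04, -0.10 and -0.16 in control livers 4, 5 and 6. By this measure all 3 null livers lay above all 3 controls. For box C/D genes the median deviations were 0.01, 0.16 and 0.03 in null livers, against -0.29, 0.07 and -0.07 in control livers. There control 5 lay above 2 of the null livers. The class medians of the signals themselves overlapped between the groups in both classes. For box H/ACA genes they were 7.82, 8.05 and 7.76 in null livers, against 7.83, 7.75 and 7.80 in control livers. For box C/D genes they were 7.32, 7.25 and 7.35 in null livers, against 6.69, 7.19 and 7.26 in control livers. Control 4 held the lowest of the 6 values for 19 of 31 box C/D genes (61.3%) and 7 of 20 box H/ACA genes (35%), against 21.6% of all probe sets. Null 5 held the highest value for 10 of 20 box H/ACA genes (50%), against 14.3% of all probe sets.

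Control 4 departed from the other controls in both directions, among the members and in the whole series. Over all probe sets it held the lowest of the 6 values for 21.6% and the highest for 27.7%, more than any other liver. It lay more than 0.5 log2 units below the mean of controls 5 and 6 in 15 of 51 members and more than 0.5 above it in 7. The shares of all probe sets past this cut are not given, so these counts cannot be read as particular to the members. Those below were 10 box C/D genes, among them Snord118, Snord82, Snord57 and Snord42a, and 5 box H/ACA genes, among them Snora69 and Snora23. Those above were 5 box H/ACA genes, led by Snora73a and Snora73b, and the box C/D genes Snord35b and Snord104. Without control 4 the median difference was 0.27 for box H/ACA genes, with 18 of 20 higher, and 0.08 for box C/D genes, with 21 of 31 higher. Without both arrays numbered 4 it was 0.25, with 19 of 20 higher, and 0.07, with 22 of 31 higher. The median SD within a group over the 51 members was 0.19 in ARSB-null and 0.27 in control livers, against 0.15 in ARSB-null and 0.16 in control livers over all probe sets.

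**Figure D3:**
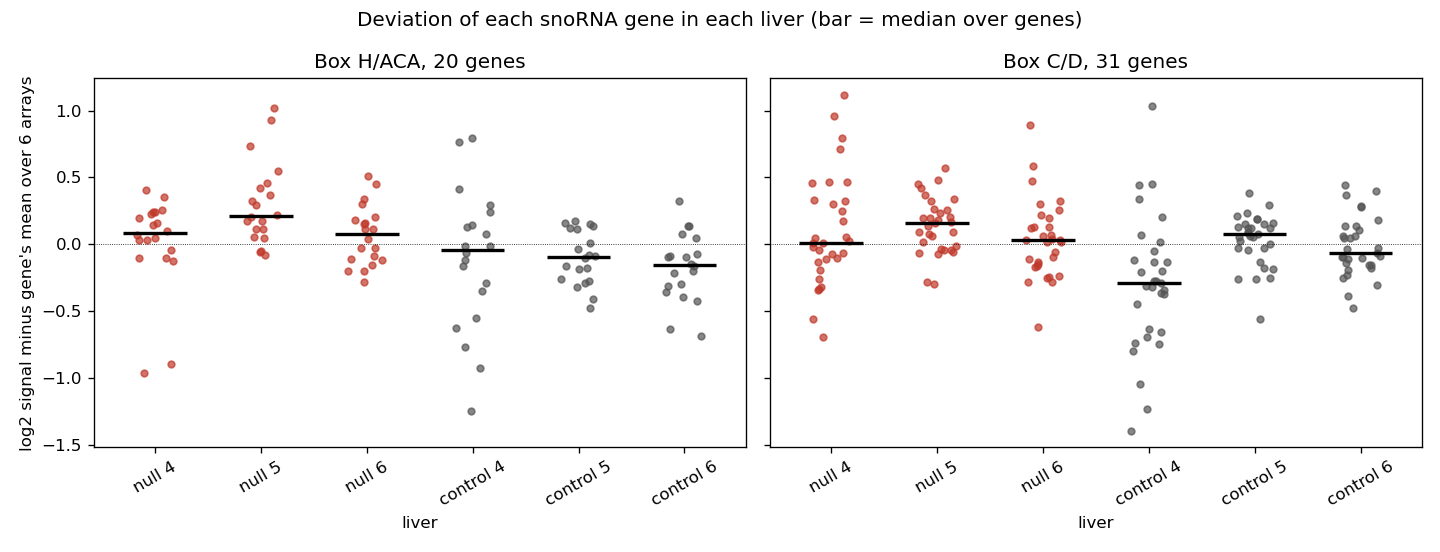
Deviation of each snoRNA gene from its own mean over the 6 arrays (y axis, log2 units) in each liver, box H/ACA on the left and box C/D on the right, ARSB-null in red and control in grey, with bars at the class median. The box C/D median of control 4, at -0.29, lies apart from the other 5 livers.

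By RefSeq positions 50 of the 51 members lay within another gene, whose strand was not compared, and 3 of these lay in several, of which the shortest was used. Ribosomal protein genes contained 21 members (41.2%), long non-coding RNA genes 13 and other protein-coding genes 16. Of the 40 containing genes 23 were measured by a probe set with 1 symbol. The 10 measured ribosomal protein hosts all had a higher mean in ARSB-null livers, by 0.01 to 0.40 with a median of 0.18, and 2 of them (Rps12 and Rpsa) had an unadjusted limma p under 0.05, joined by Rps3a1 with the mouse number as a block. The 12 measured other protein-coding hosts had a median of 0.02, with 7 higher. Over the list of 61 ribosomal protein genes 57 means were higher and 4 lower, with a median of 0.15, or 0.07 without control 4, and 0 were called (4 higher and 0 lower at an unadjusted limma p under 0.05, and 6 and 0 with the mouse number as a block, which added Rpl5 and Rps3a1). Rpl24, at 0.42, or 0.28 without control 4, had the largest difference among those 4. Of all probe sets 2.75% were higher and 3.19% lower at an unadjusted limma p under 0.05, and 4.42% and 4.15% with the block.

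Host and snoRNA differences were only loosely alike. The 27 members with a measured host lay in 23 hosts, so some hosts entered more than once, and all share the same 6 arrays. Of these members 23 had the same sign as the host, and Pearson's r was 0.28 (Spearman's rho 0.24). Since 18 of the 23 hosts and 39 of all 51 members had a higher mean, many like signs would arise without any link. The snoRNA had the more positive difference in 19 of 27. The differences of members of 1 host were not always alike, but no pair was called. Among 10 pairs of snoRNAs of the same host, the difference between the members' differences was largest in Rps3a1, where Snord73a and Snord73b differed by -0.14 and 0.52 and the host by 0.36. The gap of -0.66 between them, as the per-liver difference of both members, did not overlap between the groups (exact permutation test, two-sided, p = 0.1, adjusted over 10 pairs 0.429). In Rpl13a, Snord33 and Snord35a were 0.48 apart, also with no overlap (exact permutation p = 0.1, adjusted 0.429). Of the other 8 pairs 0 were separated in this way, and with 3 mice a group no pair could pass. Separation by itself gives p = 0.1 in the exact permutation test. These separations among 10 pairs thus do not show that members of 1 host differ. Snord73a also had a lower signal, at a mean of 5.31 over all arrays against 7.87 for Snord73b, and its part in the gap was not tested.

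**Figure D4:**
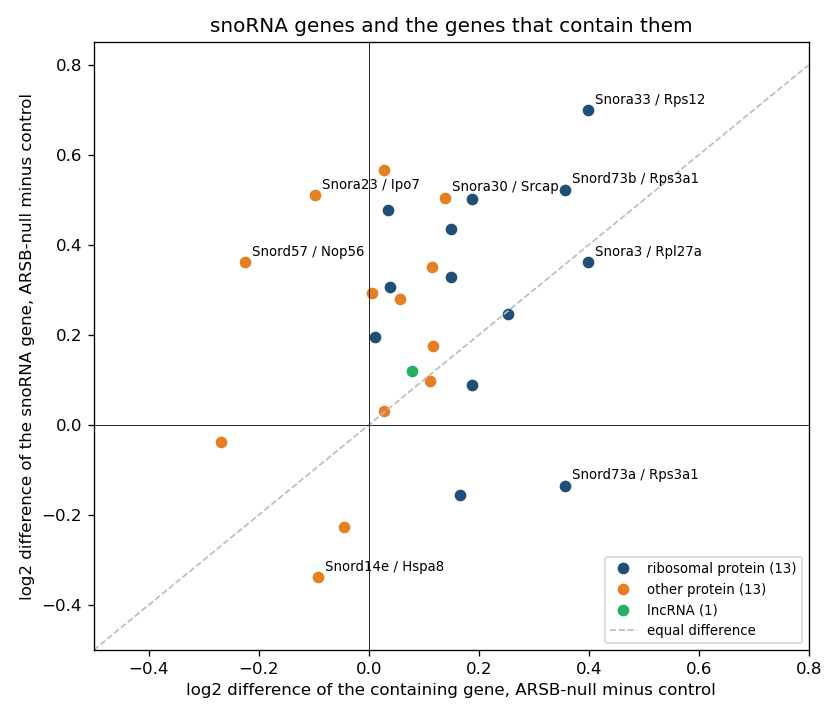
Log2 difference (ARSB-null minus control) of 27 snoRNA genes on the y axis against that of the gene that contains each on the x axis, coloured by the kind of host, with a dashed line where both are equal. The 13 points of ribosomal protein hosts all lie right of 0, and most points lie above the dashed line.

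Of the 8 core proteins of the snoRNA particles 6 means were lower in ARSB-null livers and 2 were higher. The 4 box C/D core proteins had a median difference of -0.07, or -0.16 without control 6. Fibrillarin (Fbl), the methyltransferase, differed by -0.05 (limma adjusted p = 0.994), Nop58 by 0.03 (adjusted p = 0.998) and Snu13, which binds the RNA's kink turn, by -0.09 (adjusted p = 0.993). Nop56 had 9.03, 9.15 and 9.22 in ARSB-null livers, against 9.44, 9.33 and 9.30 in control livers, with no overlap (difference -0.22, limma adjusted p = 0.859). The 4 box H/ACA core proteins had a median of -0.06, or -0.01 without control 4. Dkc1, which encodes the pseudouridine synthase dyskerin, had 7.91, 8.22 and 8.18 in ARSB-null livers, against 8.62, 8.43 and 8.30 in control livers. These groups did not overlap either, with a difference of -0.34 (limma adjusted p = 0.807). Dkc1 was the 1 core protein gene of 8 at an unadjusted limma p under 0.05, where 3.19% of all probe sets were lower. With the mouse number as a block there were 0. Nhp2 differed by -0.02, Nop10 by 0.14 and Gar1 by -0.10. The differences of Fbl, Nop58, Snu13, Nhp2 and Gar1 changed sign when 1 array or another was left out.

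Lists of the machinery around snoRNAs also had medians under 0 over all 6 arrays, beside a median of -0.01 over all probe sets with 1 symbol. Limma called 0 genes in any of them. At an unadjusted p under 0.05 the genes that differed were Tgs1, Heatr1 and Polr1e, all lower. Of all probe sets 2.75% were higher and 3.19% lower at that p. With the mouse number as a block, which also called 0, the genes that differed were Tgs1, Polr1e, Utp20, Wdr43, Bms1 and Gtpbp4, all lower. Heatr1 was not among them, and the shares of all probe sets were 4.42% higher and 4.15% lower. Of 13 assembly factors 9 means were lower and 4 higher (median -0.08). Tgs1, which makes the trimethylguanosine cap of U3 and U8, had 7.47, 7.68 and 7.67 in ARSB-null livers, against 7.89, 8.05 and 7.84 in control livers (difference -0.32, limma adjusted p = 0.766). Of 25 genes of the small subunit processome, where U3 works, 21 means were lower and 4 higher (median -0.10), with Heatr1 at -0.24 (limma adjusted p = 0.829). Of 16 large subunit processing genes 12 were lower and 4 higher (median -0.12), and Gtpbp4 differed by -0.35 (limma adjusted p = 0.864), or by -0.18 without null 4. Of 11 RNA polymerase I genes 7 were lower and 4 higher (median -0.05, or 0.01 without control 4). Polr1e, a polymerase subunit, had 6.70, 6.83 and 6.68 in ARSB-null livers, against 7.09, 7.09 and 7.11 in control livers (difference -0.36, limma adjusted p = 0.569). Of 17 trimming and decay genes 11 were lower and 6 higher (median -0.09), and of 7 genes of nonsense-mediated decay 4 were lower and 3 higher (median -0.14). Without null 4 the medians were -0.03 for assembly factors, -0.02 for the processome, -0.06 for large subunit processing, -0.04 for trimming and decay and 0.01 for nonsense-mediated decay.

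Of the non-coding host genes on a list of 22, 8 were measured, 6 with a higher and 2 with a lower mean (median 0.10, or 0.20 without control 4). Limma called 0, with 1 higher (Meg3) and 1 lower (Snhg11) at an unadjusted p under 0.05. There were 2 higher and 1 lower with the mouse number as a block, which added Snhg16. Of all probe sets 2.75% were higher and 3.19% lower at that p in limma, and 4.42% and 4.15% with the block. Meg3, an imprinted RNA whose locus holds C/D snoRNAs, had 7.47, 7.50 and 7.87 in ARSB-null livers, against 6.92, 6.67 and 6.90 in control livers. It did not overlap, with a difference of 0.78 (limma adjusted p = 0.332), and Snhg11 differed by -0.36 (limma adjusted p = 0.744).

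Other short non-coding RNAs resembled the snoRNAs in direction. Of 15 genes 12 means were higher and 3 lower, with a median of 0.26, or 0.18 without control 4 and 0.12 without null 5. The limma test called 0, and 6 were higher and 0 lower at an unadjusted p under 0.05, against 2.75% and 3.19% of all probe sets. With the mouse number as a block 0 were called, and 4 were higher and 1 lower, against 4.42% and 4.15% of all probe sets. Scarna13 and Scarna17 were then no longer among them, and the vault RNA Vaultrc5, at -0.40, was. There were 8 of 15 that lay above the controls without overlap, against 5.14% of all probe sets. The Cajal body RNAs Scarna13 and Scarna17, which guide modification of spliceosomal RNAs, differed by 0.26 (limma adjusted p = 0.826) and 0.32 (adjusted p = 0.827). Rpph1, the RNA of ribonuclease P, had 13.60, 13.58 and 13.61 in ARSB-null livers, against 13.48, 13.20 and 13.22 in control livers (difference 0.29, limma adjusted p = 0.796). The spliceosomal RNAs Rnu5g and Rnu12 differed by 0.34 (limma adjusted p = 0.731) and 0.33 (adjusted p = 0.775), and Rny1, a Y RNA, by 0.64 (adjusted p = 0.835), or 0.33 without control 4. Rnu3a, a U3 box C/D snoRNA whose symbol falls outside the Snora and Snord names, had 6.68, 7.67 and 6.53 in ARSB-null livers, against 6.66, 6.67 and 6.49 in control livers, so that null 5 alone stood out (difference 0.36, limma adjusted p = 0.977, or 0.00 without it). The telomerase RNA Terc, which carries a box H/ACA domain, differed by 0.23 (limma adjusted p = 0.956), or by 0.12 without null 5. Over 300 microRNA genes, short RNAs made by another route, the median was 0.00, with 155 higher and 145 lower, or 0.05 without control 4. Limma called 0 of them, with 6 higher and 3 lower at an unadjusted p under 0.05, and 13 and 6 with the mouse number as a block.

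**Figure D5:**
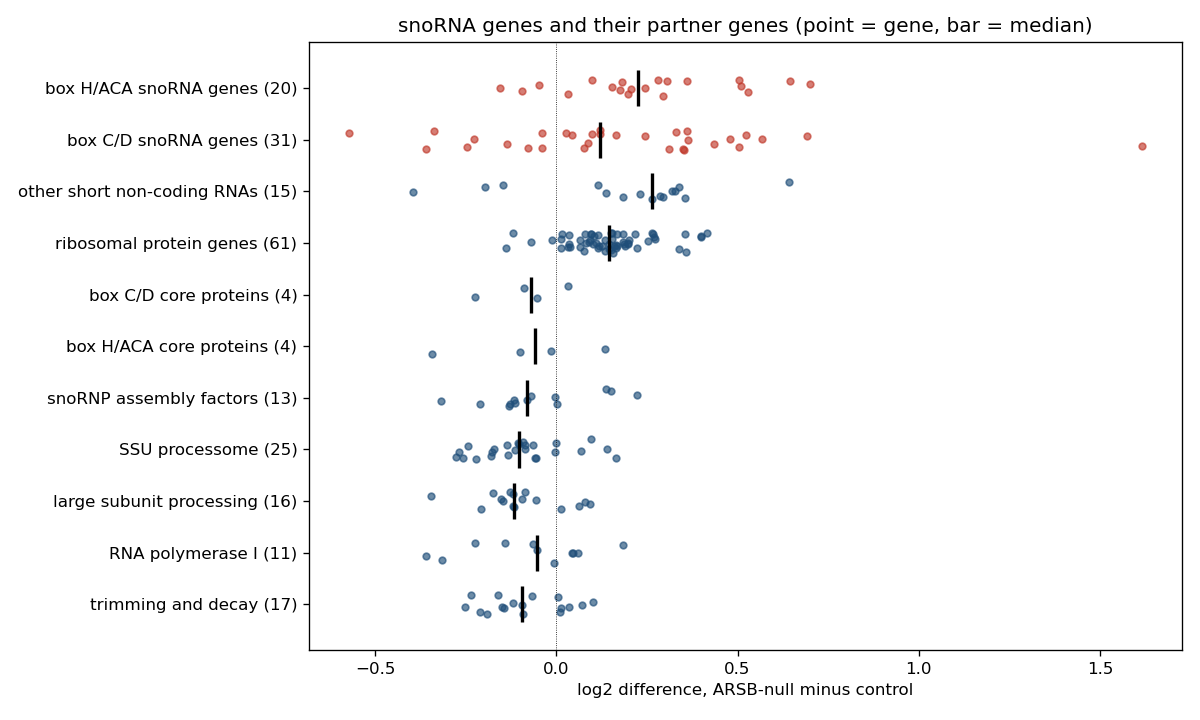
Log2 difference (x axis, ARSB-null minus control) of the single genes (points) and their median (bars) for the 2 snoRNA classes in red and for 9 other lists in blue, with the number of genes in brackets. The medians of both snoRNA classes, the other short non-coding RNAs and the ribosomal protein genes lie right of 0, at 0.23, 0.12, 0.26 and 0.15, and those of the 7 protein lists below them lie left of 0.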

How the data were processed

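The authors labeled total RNA (WT PLUS kit, biotin), hybridized it to a mouse whole-transcript gene array, then applied quantile normalization and probe set summarization. RMA and Partek appear in the submitters' processing notes. Their versions, the probe set library and the genome build were not given in the sources used here. The paper's methods name a second-generation array, whereas the deposited row identifiers matched GEO's annotation of the first-generation design. Each deposited value is a log2 signal of 1 probe set on 1 array, and there were no detection calls. Array medians lay at 6.5 to 6.6, and the number of arrays limits the precision. All per-sample columns were used.

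Of 35556 probe sets, 21789 had 1 symbol, 1621 several and 12146 were not listed. Limma 3.58.1 in R 4.3.3 (lmFit, eBayes) compared ARSB-null with control over all probe sets, two-sided, with Benjamini-Hochberg adjustment, and was tested on simulated data. The analysis of variance named in the methods was an alternative. P-values measure the spread between these mice. Correlations of the deviations of same-numbered mice were 0.396, 0.159 and 0.193 for numbers 4, 5 and 6 across all probe sets, all over 0.1, so the blocked fit is given where it changes a count. Over the 51 members alone the same correlations were -0.222, -0.320 and 0.267, so 4 and 5 ran the other way there. What the numbers share is not stated in the labels. Named were, per class, the 6 members with the smallest p in each direction and the 4 brightest, the 8 core proteins, and up to 2 genes of each list. Tmem107, Snord33, the host genes, genes that the blocked fit added and further short RNAs and ribosomal protein genes were named after their values were seen. Members and lists were chosen with earlier results of these data known. The lists of large subunit processing and of U8 binding were added after values were seen. Start windows came from RefSeq (GRCm38.p6), which held 0 of the 51 members, and containing genes from RefSeq positions.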

Additional observations from a re-analysis of the deposited data

How the results depend on the processing

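The median differences kept their sign under all alternatives, at 0.19 to 0.33 (box H/ACA) and 0.07 to 0.21 (box C/D) log2 units with 1 array left out or both arrays numbered 4 left out. Of 422 values of the named genes under alternatives, 418 kept their direction or stayed uncalled and 4 became called. These were Snord118 and Snora33 when only probe sets with 1 symbol were tested, without the replicate block (adjusted p = 0.0239 and 0.0439) or with it (0.0236 and 0.0333). The fit with the block was chosen after seeing the data. Counts of genes at an unadjusted p under 0.05 moved more. The share of all probe sets at this threshold is given above only for limma and the replicate block. Counts under the other settings thus cannot be read as above or below it. Box C/D genes that were lower numbered 0 in limma, 2 with the replicate block, 1 when arrays were centred on their medians, 1 with only 1-symbol probe sets, 3 with array weights, 2 without both arrays numbered 4, and 3 with 1-symbol probe sets and the block. Box H/ACA genes that were higher numbered 3, and 5, 6 and 6 with 1-symbol probe sets, array weights, and 1-symbol probe sets with the block, where box C/D genes numbered 6 with 1-symbol probe sets and 8 with the block added, against 3. In both of those 1-symbol fits 1 box H/ACA and 1 box C/D gene were called. The pairing changed no other call. Leaving out 1 array gave 3 to 6 (box H/ACA higher), 2 to 6 (box C/D higher) and 0 to 3 (box C/D lower) genes at an unadjusted p under 0.05, the highest without control 4 for the first and last. Genes without overlap between the groups then numbered 4 to 9, 4 to 9 and 1 to 4, and 11, 9 and 6 without both arrays numbered 4, where fewer values have to be ordered. Over all probe sets the shares were then 7.93% to 14.3% higher and 10.5% to 13.8% lower, and 21.8% and 19.1% without both arrays numbered 4. Signs changed in 16 of the values, all uncalled, in Snora73a, Snora73b, Snora52, Snord35b and Snord104. With only probe sets above the median signal, the dimmer named genes gave no value. A change common to most genes would not appear after quantile normalization.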

Other observations

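Another 41 probe sets carried several symbols, at least 1 of them a snoRNA, and belonged to no comparison above. Their median log2 difference, ARSB-null minus control, was 0.10. In limma 0 of them were called, and 2 were higher and 0 lower at an unadjusted p under 0.05. Of all probe sets 2.75% were higher and 3.19% lower at that p.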
